A study of Mus musculus with 2 samples.

Results

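The collagen genes of the mouse choroid and retinal pigment epithelium (RPE) were described in single cells, in 2 libraries of 1 genotype each. The members were all genes whose symbol is Col, a number, a and a number, which gave 44 of the 32285 genes in the gene list. The Tsc1 flox library carried the floxed Tsc1 allele (Tsc1tm1Djk/J), and the Tsc1 RPE KO library carried the same allele with Best-Cre, a Cre that the labels call RPE-specific. Each library pooled RPE/choroid tissue of 1 male and 1 female, 10 weeks old. The neuroretina had been removed, the eye cups were digested with collagenase, dispase and trypsin, and live cells were sorted. With 1 library per genotype no difference between genotypes could be tested, and the genotype cannot be told apart from the animals or the preparation.

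Collagens are secreted or membrane proteins whose chains wind around each other in a helix, and their families differ in what they build. Fibrillar collagens form the cables of the sclera and choroidal stroma, FACIT collagens decorate those cables, and beaded-filament collagens form microfibrils between them. Network collagens form the sheets of basement membranes, and Bruch's membrane, between RPE and choroid, holds fibrillar layers between the basement membranes of the RPE and of the choriocapillaris.

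The levels below are unique molecular identifiers (UMIs, each marking 1 captured RNA molecule) of a gene summed over the cells of a class and library, scaled to the UMI total of that class (CPM). The kit tags the 3′ end of a transcript once, so CPM were not scaled by gene length. Every interval is an exact 95% interval for counting error only and does not cover the spread between cells or animals. Where values come in pairs, the first is of Tsc1 flox and the second of Tsc1 RPE KO.

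The promoters of 5 collagen genes, taken from RefSeq, are shown because Col8a1, Col10a1, Col15a1 and Col23a1 carry the contrasts below and Col3a1 is the most abundant collagen with a window free of annotated exons. Each shows the 250 bases before the RefSeq start of the gene in build GRCm38.p6, 5′ to 3′ on the gene's strand. Capitals mark 3 motifs on either strand. These are the TATA motif TATAAA, which in reverse reads TTTATA, the box known as CCAAT, whose reverse letters are ATTGG, and the GC box GGGCGG, which in reverse becomes CCGCCC. Col3a1 (chr1:45311288-45311537, plus strand) leads with Col1a1 and Col1a2 among the fibrillar genes. Col8a1 (chr16:57754738-57754987, minus strand) led the RPE. Col10a1 (chr10:34389731-34389980, plus strand) and Col23a1 (chr11:51289670-51289919, plus strand) stood in the Edn3-type fibroblasts with at most 2 UMIs per library in the Sfrp2-type. Col15a1 (chr4:47207762-47208011, plus strand) differed most between the genotypes.
Col3a1: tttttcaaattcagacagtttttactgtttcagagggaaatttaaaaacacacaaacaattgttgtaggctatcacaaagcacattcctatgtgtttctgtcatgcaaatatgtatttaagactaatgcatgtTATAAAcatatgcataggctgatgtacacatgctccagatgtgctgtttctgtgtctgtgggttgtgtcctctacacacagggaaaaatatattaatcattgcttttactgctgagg
Col8a1: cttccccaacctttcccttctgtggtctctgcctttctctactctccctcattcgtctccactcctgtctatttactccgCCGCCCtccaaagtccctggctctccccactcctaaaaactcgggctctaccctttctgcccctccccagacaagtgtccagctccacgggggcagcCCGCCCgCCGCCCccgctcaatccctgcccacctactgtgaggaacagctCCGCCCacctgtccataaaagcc
Col10a1: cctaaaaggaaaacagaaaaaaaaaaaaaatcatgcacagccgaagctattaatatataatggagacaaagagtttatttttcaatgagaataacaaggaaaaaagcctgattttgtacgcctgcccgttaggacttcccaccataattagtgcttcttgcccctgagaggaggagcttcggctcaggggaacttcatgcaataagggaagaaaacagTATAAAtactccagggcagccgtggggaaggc
Col15a1: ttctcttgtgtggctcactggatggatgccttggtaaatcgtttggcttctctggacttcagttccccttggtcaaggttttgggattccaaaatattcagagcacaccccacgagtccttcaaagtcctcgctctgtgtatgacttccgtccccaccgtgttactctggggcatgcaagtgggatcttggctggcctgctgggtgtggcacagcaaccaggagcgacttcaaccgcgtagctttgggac
Col23a1: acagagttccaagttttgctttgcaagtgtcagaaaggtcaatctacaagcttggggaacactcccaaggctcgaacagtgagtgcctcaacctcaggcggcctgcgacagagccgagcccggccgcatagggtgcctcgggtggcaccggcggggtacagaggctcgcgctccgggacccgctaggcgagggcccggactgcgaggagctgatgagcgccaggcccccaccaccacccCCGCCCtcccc
The Col10a1 window held TATAAA 32 bases before the start, and the Col3a1 window held it 117 bases before the start. The Col8a1 window held 4 copies of the GC box, all in reverse, and the Col23a1 window held 1, while the Col15a1 window held none of the 3 motifs. Base composition ran from 35.2% G and C in Col3a1 and 41.6% in Col10a1 to 53.6% in Col15a1, 60.8% in Col8a1 and 66.0% in Col23a1. Of the 35 collagen genes with a window, 5 held the TATA motif (14.3%, against 12.4% of 32851 windows of the same length), 13 held the CCAAT box (37.1% against 33.8%) and 21 held the GC box (60% against 32.7%). The collagens were counted per gene, by a match in any window of the gene, and the comparison per window. Genes with more than 1 window therefore had more room to match. A match is a run of letters and was not taken as a binding site.

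After filtering, 1524 Tsc1 flox and 1853 Tsc1 RPE KO cells remained, with medians of 4525 and 4617 UMIs per cell, and 2 cell barcodes occurred in both libraries. Tsc1 itself was no check of the labels, since the 3′ tag lies outside the deleted exons. Its UMIs numbered 36 (Tsc1 flox) and 22 (Tsc1 RPE KO) in the Edn3-type fibroblasts, and none fell in RPE-like cells. Classes were named from marker genes after clustering without collagens. The RPE-like cells passed 11 of 12 RPE markers, with Best1 at 0 in both libraries, and the endothelial-like cells passed 12 of 12. Both fibroblast types passed fibroblast markers, 10 of 13 in the cluster led by Edn3, Serpine2 and Pgf and 13 of 13 in the cluster led by Sfrp2, Fmod and Igfbp6. They are called Edn3-type and Sfrp2-type fibroblasts here.

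Of the 44 collagen genes, 41 had a UMI in some cell, and Col6a4, Col9a1 and Col22a1 had none. The cells held 20574 collagen UMIs, of which 96.1% lay in these 4 classes. There were 24 genes with at least 50 UMIs in at least 1 of the classes. Another 14 stayed under 50 UMIs in each class, with sums over the 4 classes and both libraries as follows (Col2a1 3 UMIs, Col4a3 31, Col4a4 60, Col4a6 27, Col5a3 65, Col6a5 15, Col6a6 5, Col7a1 1, Col9a2 2, Col11a2 27, Col24a1 9, Col25a1 1, Col26a1 16 and Col28a1 1), and Col17a1, Col19a1 and Col20a1 had UMIs in other cells only.

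The Sfrp2-type fibroblasts devoted the largest part of their RNA to collagens, the Edn3-type fibroblasts less, and the RPE and endothelium less again. In the 29 Tsc1 flox Sfrp2-type cells the summed collagens reached 35216 CPM (34334 to 36115), and in the 24 Tsc1 RPE KO cells 22771 CPM (22012 to 23549). The 235 and 152 Edn3-type cells gave 6455 CPM (6295 to 6618) and 5304 CPM (5122 to 5490). The 12 and 44 RPE-like cells gave 2773 CPM (2227 to 3413) and 2516 CPM (2222 to 2837), and the 41 and 48 endothelial-like cells 1672 CPM (1485 to 1876) and 1541 CPM (1363 to 1735). The order of the 4 classes was the same in both libraries, and no interval of one class overlapped that of its neighbour in the same library. In the B cell-like cells, which should make no collagen, the sum was 24.2 and 22.9 CPM, and 7.77% and 7.86% of cells had any collagen UMI at median depths of 3906.5 and 3866.5 UMIs. The share was 100% in both fibroblast types at medians of 3842.5 to 6322 UMIs, 90.2% and 93.8% in the endothelium (3843 and 3303.5) and 100% and 95.5% in the RPE (2582 and 2096.5). Free RNA, read from barcodes of 10 to 100 UMIs, held 1610 and 1018 CPM of collagen.

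Each class had its own mixture of collagen families. Fibrillar collagens made up 84.4% of the collagen UMIs of Tsc1 flox Sfrp2-type fibroblasts and 79.0% in Tsc1 RPE KO, against 68.4% and 65.5% in Edn3-type fibroblasts, 5.54% and 2.94% in endothelium and 1.12% and 0% in RPE. The basement membrane network chains took 62.3% and 75.0% in the endothelium, and the multiplexins another 24.6% and 18%. In the RPE the short-chain collagens held 58.4% and 52.8%, and the FACIT family, there Col9a3 alone, 18% and 21.1%. The Edn3-type fibroblasts carried 7.77% and 11.9% of short-chain and 4.15% and 3.51% of transmembrane collagens, against 0.877% and 0.793%, and 0.0496% and 0.147%, in the Sfrp2-type. Of the 24 named genes, 11 were highest in the Sfrp2-type fibroblasts in both libraries with an interval above that of the next class, 3 in the RPE (Col8a1, Col8a2 and Col9a3), 2 in the Edn3-type (Col10a1 and Col23a1) and 1 in the endothelium (Col4a1). No share over all measured genes stands beside these numbers, so they describe the collagens only.

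**Figure D1:**
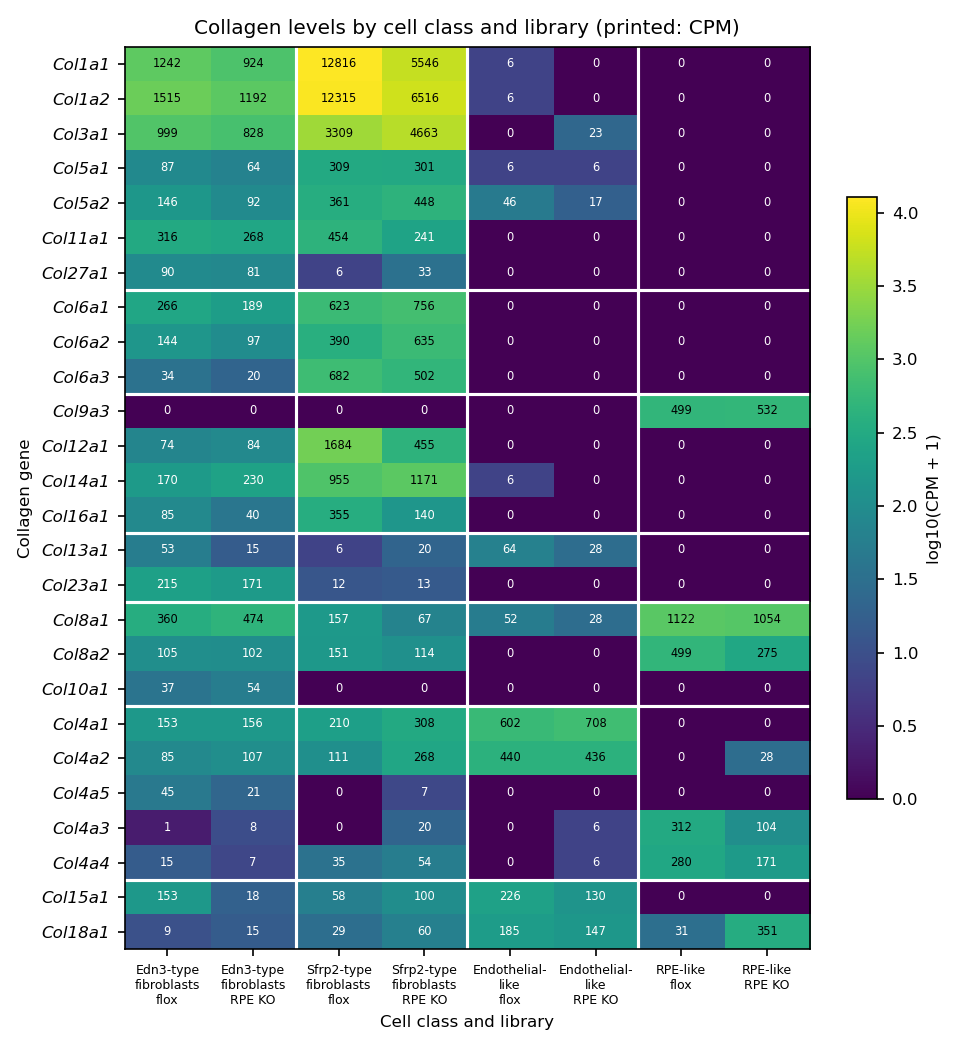
Heat map of collagen levels in the 4 cell classes and 2 libraries; colour is log10(CPM + 1) and the printed value is CPM, for the 24 named genes and for Col4a3 and Col4a4. The fibrillar genes fill the fibroblast columns and Col9a3 has UMIs only in the RPE columns of these classes.

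**Figure D2:**
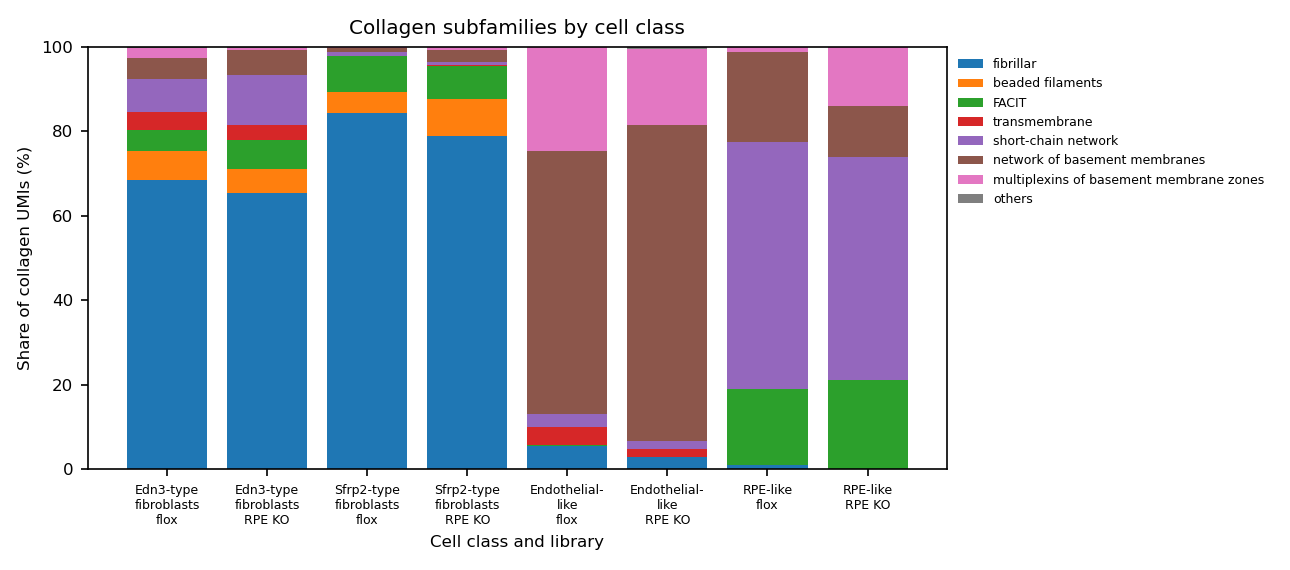
Share of the collagen UMIs of each class and library, in percent, taken by each collagen family, as stacked bars that sum to 100%. Fibrillar collagens take 65.5% to 84.4% in the fibroblast types, basement membrane network chains 62.3% and 75.0% in the endothelium and short-chain collagens 58.4% and 52.8% in the RPE.

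The fibroblast types were compared within each library, so that the second library repeats the contrast. A gene was counted when it had at least 50 UMIs over the cells compared, stood past 2-fold in the same direction in both libraries and had an interval that excluded 1 in each. Of 23 collagens that met the UMI minimum, 12 stood higher in the Sfrp2-type, against 3.65% of the 6389 genes measured, and 3 stood higher in the Edn3-type, against 5.46% (9.11% either way). The remaining 8 met neither rule. Collagens took no part in the clustering that made the types. The cells nevertheless come from the same libraries that defined them, so the ratios describe the types and are no test.

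The chains of type I collagen, the main protein of scleral fibrils, differed most in CPM. Col1a1 (ENSMUSG00000001506) stood at 1242 CPM (1172 to 1314) in Edn3-type and 12816 CPM (12286 to 13363) in Sfrp2-type fibroblasts of Tsc1 flox, and at 924 CPM (849 to 1003) and 5546 CPM (5174 to 5936) in Tsc1 RPE KO. The intervals of the types were far apart in both libraries, with ratios of 10.3 (9.62 to 11.1) and 6.0 (5.39 to 6.70). Its partner chain Col1a2 (ENSMUSG00000029661) gave 1515 and 12315 CPM in Tsc1 flox and 1192 and 6516 CPM in Tsc1 RPE KO, ratios of 8.13 and 5.47. Type III collagen, encoded by Col3a1 (ENSMUSG00000026043) and found beside type I in softer tissue, gave 999 and 3309 CPM in Tsc1 flox and 828 and 4663 CPM in Tsc1 RPE KO, ratios of 3.31 and 5.63. Col3a1 shares an exon with Gm47302 on the same strand in GENCODE M21, so its counts are uncertain to that extent. Col3a1 UMIs per Col1a1 UMI were 0.805 and 0.897 in the Edn3-type and 0.258 and 0.841 in the Sfrp2-type, so the summed ratio of these chains differed between the types mainly in Tsc1 flox. Single cells weigh on that sum, since the Tsc1 flox Sfrp2-type cell of highest collagen share held 386 Col1a1 and 5 Col3a1 UMIs. The median Sfrp2-type cell stood at 5456 CPM of Col1a1 and 2717 CPM of Col3a1 in Tsc1 flox, and at 4500 and 3036 CPM in Tsc1 RPE KO.

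The minor fibrillar collagens are built into type I fibrils and set their width. Among them the type V chains differed from Col11a1, a type XI chain. Col5a1 stood at 86.6 and 64.2 CPM in the Edn3-type and 309 and 301 CPM in the Sfrp2-type, and Col5a2 at 146 and 92.2 CPM against 361 and 448 CPM. Both passed the 2-fold limit, with ratios of 3.57 and 4.69 for Col5a1 and 2.47 and 4.86 for Col5a2, as did Col5a3 with 13 and 7 UMIs against 22 and 18. Col11a1 stood instead at 316 and 268 CPM in the Edn3-type and 454 and 241 CPM in the Sfrp2-type, with ratios of 1.44 (1.11 to 1.85) and 0.897 (0.607 to 1.29). The second turned to 1.06 with types assigned per cell, 1.10 with equal weights and 1.01 by median ratio. The Edn3-type fibroblasts held 3.65 and 4.18 Col11a1 UMIs per Col5a1 UMI, and the Sfrp2-type 1.47 and 0.800. Col27a1, a fibrillar collagen known from cartilage, had 86 and 49 UMIs in the Edn3-type and 1 and 5 in the Sfrp2-type, with inverse ratios of 15.4 and 2.41. Its interval in Tsc1 RPE KO included 1, so it was not counted.

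Among collagens on or between the fibrils, all 6 that reached the minimum were higher in the Sfrp2-type. Col6a3 (ENSMUSG00000048126), the long chain of type VI microfibrils, stood at 34.4 and 19.8 CPM in the Edn3-type and 682 and 502 CPM in the Sfrp2-type, ratios of 19.8 (13.4 to 30.1) and 25.4 (13.7 to 51.3). The other chains differed less. Col6a1 stood at 266 and 189 CPM against 623 and 756 CPM (ratios 2.34 and 3.99) and Col6a2 at 144 and 97.1 against 390 and 635 CPM (2.71 and 6.54). Col6a3 UMIs per Col6a1 UMI were accordingly 0.129 and 0.104 in the Edn3-type and 1.09 and 0.664 in the Sfrp2-type. Col6a5 and Col6a6, alternative chains of the same family, had 15 and 5 UMIs in the Sfrp2-type over both libraries and 0 in the Edn3-type. Of the FACIT genes, Col12a1 (ENSMUSG00000032332) stood at 74.1 and 84.0 CPM against 1684 and 455 CPM, with ratios of 22.7 (17.5 to 29.9) and 5.42 (3.71 to 7.95). One cell held 27% of its UMIs in the Tsc1 flox Sfrp2-type. Col14a1 stood at 170 and 230 CPM against 955 and 1171 CPM (5.62 and 5.08) and Col16a1 at 84.5 and 39.5 against 355 and 140 CPM (4.21 and 3.56).

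The genes that stood higher in the Edn3-type encode short-chain and transmembrane collagens. Col8a1 (ENSMUSG00000068196), a chain of the type VIII network of vessel walls and Descemet's membrane, stood at 360 CPM (323 to 400) and 474 CPM (421 to 532) in the Edn3-type and at 157 CPM (104 to 229) and 66.9 CPM (32.1 to 123) in the Sfrp2-type. The Edn3-type was 2.29 and 7.09 times as high, although the call for Col8a1 was lost when types were assigned per cell or levels were rescaled by median ratio. Its partner Col8a2 did not follow, at 105 and 102 CPM against 151 and 114 CPM, with intervals of the ratio that included 1 in both libraries. Col8a1 UMIs per Col8a2 UMI were 3.42 and 4.65 in the Edn3-type and 1.04 and 0.588 in the Sfrp2-type. Col10a1 (ENSMUSG00000039462), best known from hypertrophic cartilage, had 35 and 33 UMIs in the Edn3-type and 0 in the Sfrp2-type of both libraries. These UMIs lay in a small part of the Edn3-type cells, as given by subcluster below. Mural-like cells of Tsc1 flox also held Col10a1 UMIs, so the gene marks no single class. Against a floor of 3 counts over the class Col10a1 was 2.09-fold and 2.71-fold lower in the Sfrp2-type. The intervals reached down to 1.61-fold and 2.08-fold. The gene overlaps Nt5dc1 on the other strand, and whether counting used strand is not given in the sources used here.

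Col23a1 (ENSMUSG00000063564), a transmembrane collagen whose ectodomain can be shed, separated the types most clearly on the Edn3 side. It had 206 and 104 UMIs in the Edn3-type, or 215 CPM (187 to 246) and 171 CPM (140 to 207), and 2 UMIs in each library of the Sfrp2-type. The inverse ratios were 18.4 (5.04 to 153) and 12.8 (3.46 to 107). Col13a1, also transmembrane and known from neuromuscular junctions, had 51 and 9 UMIs against 1 and 3. In Tsc1 flox that was 53.2 against 5.83 CPM, but in Tsc1 RPE KO 14.8 against 20.1 CPM. Its ratio of the Sfrp2-type over the Edn3-type in Tsc1 RPE KO was 1.35 (0.236 to 5.43), so Col13a1 was not counted.

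None of the 3 basement membrane network chains measured was counted between the types. Col4a1 (ENSMUSG00000031502) and Col4a2 (ENSMUSG00000031503), the chains of nearly all basement membranes, had ratios of the Sfrp2-type over the Edn3-type of 1.37 and 1.31 in Tsc1 flox, with intervals that included 1, and 1.97 and 2.50 in Tsc1 RPE KO. Col4a5 had 43 and 13 UMIs in the Edn3-type and 0 and 1 in the Sfrp2-type. Col15a1 (ENSMUSG00000028339), a multiplexin that links basement membranes to the fibrils around them, went opposite ways, with a ratio of 0.380 (0.178 to 0.719) in Tsc1 flox against 5.54 (2.38 to 13.3) in Tsc1 RPE KO.

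**Figure D3:**
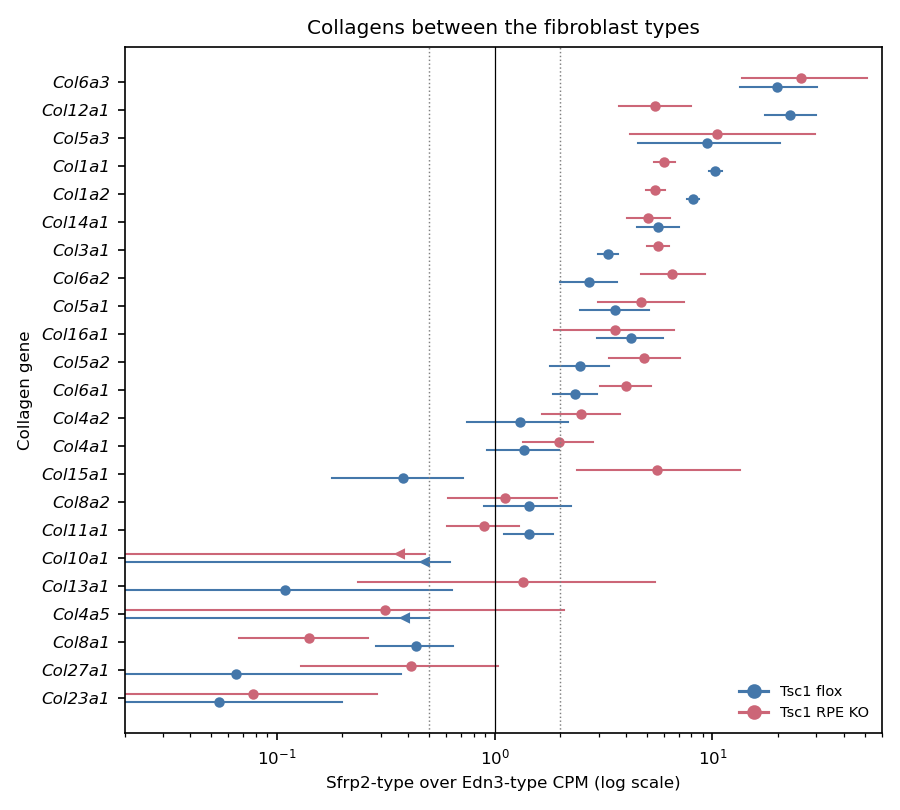
Ratio of Sfrp2-type over Edn3-type fibroblasts (CPM over CPM, log axis) for each measured collagen, 1 point per library with its 95% counting interval; triangles are ratios against a floor of 3 counts where the Sfrp2-type had 0 UMIs, and dotted lines mark 0.5 and 2. Col12a1 lies farthest to the Sfrp2 side in Tsc1 flox and Col6a3 in Tsc1 RPE KO. Col23a1 lies farthest to the Edn3 side, and the points of Col15a1 lie on opposite sides of 1.

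Within the Edn3-type fibroblasts the collagens varied by subcluster. The cells split into 3 subclusters of 102 and 80, 83 and 49, and 50 and 23 cells, led by Cxcl1, Rasd1 and Cdkn1a, by Myoc, Rgs5 and Thbs4, and by Ephb1, Slc4a8 and Pdk4. In the same order, Col23a1 stood at 326, 73.2 and 251 CPM in Tsc1 flox and 260, 4.75 and 258 CPM in Tsc1 RPE KO, lowest in the Myoc subcluster in both libraries. Col12a1 stood at 21.9, 157 and 22.3 CPM in Tsc1 flox and 6.58, 219 and 32.3 CPM in Tsc1 RPE KO, highest in the Myoc subcluster in both. Col8a2 had the same order as Col12a1 for the Myoc subcluster, at 212 and 181 CPM there against 24.3 and 46.0 CPM in the Cxcl1 subcluster. Col11a1 was lowest in the Cxcl1 subcluster, at 151 and 98.7 CPM, against 374 to 472 CPM elsewhere. Col10a1 lay in few cells of each subcluster. In Tsc1 flox it had 17 UMIs in 10 Cxcl1 cells, 16 in 4 Myoc cells and 2 in 2 Ephb1 cells. A single cell held 68.75% of the 16 in the Myoc subcluster. In Tsc1 RPE KO it had 22 UMIs in 15 cells, 5 in 3 and 6 in 2, in the same order. The summed mural cell markers were similar, at 1014, 1085 and 1276 CPM. The split itself depended on the clustering. With barcodes of at least 1000 UMIs the Edn3-type subclusters held 125 and 103, and 122 and 67 cells, mixed barcodes included. With collagens kept in the clustering they held 109 and 89, and 128 and 65 cells. Collagens per subcluster were read in the main split only.

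**Figure D4:**
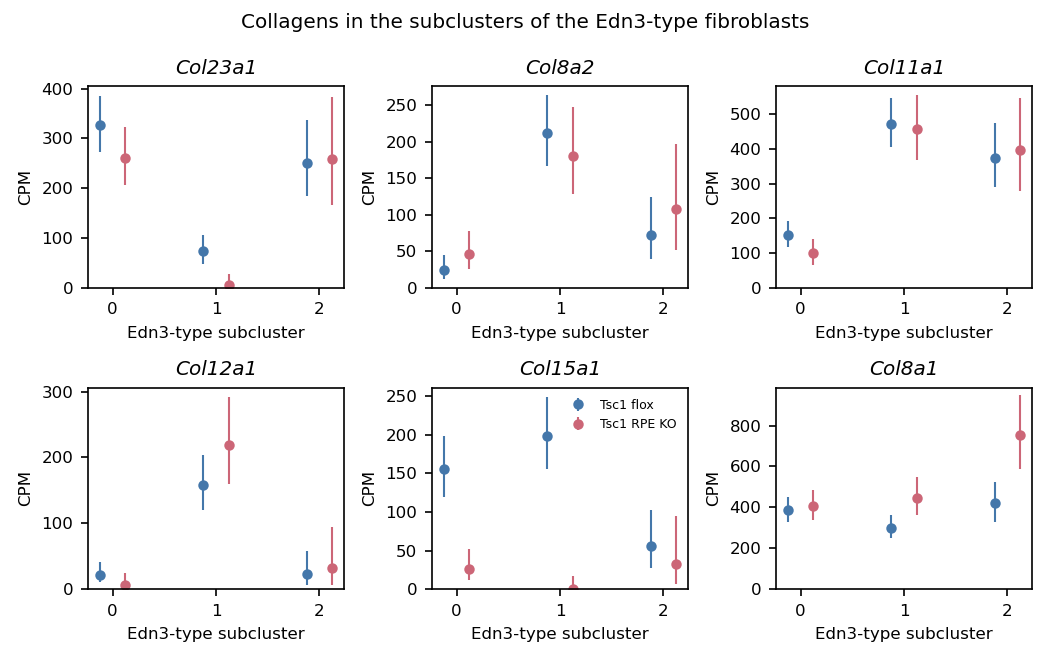
CPM with exact 95% Poisson intervals of 6 collagens in the 3 subclusters of Edn3-type fibroblasts, in both libraries. Col23a1 is lowest and Col12a1 and Col8a2 are highest in the Myoc subcluster, and Col15a1 is lower in Tsc1 RPE KO in the Cxcl1 and Myoc subclusters.

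The endothelium, the lining of the choroidal vessels, expressed the collagens of vessel basement membranes. Col4a1 stood at 602 CPM (492 to 729) and 708 CPM (589 to 844) and was detected in 75.6% and 68.8% of cells, and Col4a2 at 440 CPM (346 to 550) and 436 CPM (344 to 545). Among the 4 classes, Col4a1 was highest here in both libraries beyond the intervals, while the few mural-like cells stood at 601 and 531 CPM. The 2 genes lie head to head at chr8:11198423-11312826 (minus strand) and chr8:11312805-11449287 (plus strand) in GENCODE M21, where their 5′ ends overlap by 22 bases. They kept 1.37 and 1.62 Col4a1 UMIs per Col4a2 UMI in the endothelium, against 1.81 and 1.46 in the Edn3-type. Col15a1 stood at 226 and 130 CPM and Col18a1 (ENSMUSG00000001435), the precursor of endostatin, at 185 and 147 CPM, and the transmembrane Col13a1 at 63.6 and 28.3 CPM. Col6a1, Col6a2 and Col6a3 had 0 UMIs, with upper limits of the interval of 21.3 and 20.9 CPM each.

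The RPE expressed a short list of collagens. Col8a1 stood at 1122 CPM (786 to 1553) and 1054 CPM (867 to 1269), in 83.3% and 75.0% of cells, above the other 3 classes in both libraries. Col9a3 (ENSMUSG00000027570), a chain of type IX collagen known from cartilage and the vitreous, stood at 499 CPM (285 to 810) and 532 CPM (402 to 690), in 83.3% and 61.4% of cells, and had 0 UMIs in the other 3 classes. The gene overlaps Tcfl5 on the other strand. Col8a2 stood at 499 and 275 CPM. Below the minimum of 50 UMIs, Col4a3 had 10 and 11 UMIs and Col4a4 9 and 18, which are chains of the kidney filter's basement membrane and lie head to head with 71 bases between them. They stood at 312 and 104 CPM (Col4a3) and 280 and 171 CPM (Col4a4), while Col4a1 had 0 UMIs in the RPE and Col4a2 3. Col1a1, Col1a2 and Col3a1 had 0 UMIs in the RPE of both libraries, with upper limits of the interval of 114.9 and 35.0 CPM each. Fibroblast markers summed to 31.2 and 75.9 CPM in these cells, with 12 and 10 of 13 at 0, and rod markers to 312 and 446 CPM.

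Between the genotypes, the summed collagens of both fibroblast types stood lower in Tsc1 RPE KO. These cells are not the ones the labels name as the target of Cre. The summed collagens in the Edn3-type had a ratio of Tsc1 RPE KO over Tsc1 flox of 0.822 (0.787 to 0.858) and in the Sfrp2-type of 0.647 (0.620 to 0.674). The ratio was 0.921 (0.778 to 1.09) in the endothelium and 0.907 (0.711 to 1.17) in the RPE, where the intervals included 1. A gene was counted here when it had at least 50 UMIs in the class over both libraries and stood past 1.5-fold with an interval that excluded 1.

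In the Edn3-type fibroblasts, 5 of 21 measured collagens stood lower and 0 higher in Tsc1 RPE KO, against 4.7% lower and 2.38% higher among 5641 genes (7.07% either way). The median log2 ratio of the 21 was -0.33, against -0.04 over all measured genes. Col15a1 differed most, at 153 CPM (130 to 180) in Tsc1 flox and 18.1 CPM (9.04 to 32.4) in Tsc1 RPE KO, from 147 and 11 UMIs. The intervals did not overlap, and the ratio was 0.118 (0.0577 to 0.218). Col15a1 was found in 44 of 235 and 7 of 152 cells, or 18.7% and 4.61%, and in 9.36% and 1.97% when each cell was thinned to 1000 UMIs. In the Myoc subcluster it stood at 198 CPM against 0, and in the Cxcl1 subcluster at 156 against 26.3 CPM. In the Ephb1 subcluster it stood at 55.8 against 32.3 CPM, with overlapping intervals and 10 and 3 UMIs, of which 1 cell held 90% and 100%. Col13a1 stood at 53.2 and 14.8 CPM, with a ratio of 0.278 (0.121 to 0.571), and Col16a1, a FACIT collagen, at 84.5 and 39.5 CPM, with a ratio of 0.468 (0.283 to 0.745). Col4a5 had a ratio of 0.477 (0.235 to 0.904) and Col5a2 of 0.631 (0.454 to 0.866). Col4a5 was no longer counted with cells weighted equally, nor Col5a2 at 1000 UMIs per cell, with types assigned per cell or at a 2-fold limit. By family, the ratio was 0.786 (0.746 to 0.828) for fibrillar collagens, 0.689 (0.577 to 0.820) for beaded filaments, 0.983 (0.816 to 1.18) for the basement membrane network and 1.26 (1.10 to 1.44) for short-chain collagens.

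The abundant fibrillar chains of the Edn3-type stood between 0.744 and 0.828 and missed the 1.5-fold limit. These were Col1a1 at 0.744 (0.672 to 0.823), Col1a2 at 0.787 (0.719 to 0.861) and Col3a1 at 0.828 (0.742 to 0.924). Col8a1 at 1.32 (1.12 to 1.54) and Col14a1 at 1.36 (1.07 to 1.71) leaned the other way, also within the limit. The levels of Col3a1 and Col1a1 varied by subcluster. Col3a1 stood at 990 against 423 CPM in the Myoc subcluster, 966 against 921 in the Cxcl1 and 1095 against 1441 in the Ephb1. The Col3a1 intervals overlapped except in the Myoc subcluster. Col1a1 stood at 1576 against 970, 1020 against 809 and 1061 against 1194 CPM in the same order. In the Tsc1 RPE KO Ephb1 subcluster, 1 cell held 33.6% of the Col3a1 and 29.7% of the Col1a1 UMIs. Red blood cell markers moved with the genotype in both fibroblast types. The 5 summed to 387 and 120 CPM in the Edn3-type, with Alas2 at 0, and to 256 and 87.0 CPM in the Sfrp2-type, with 1 and 2 of 5 at 0. Their part in these ratios was not tested.

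In the Sfrp2-type fibroblasts, 5 of 14 measured collagens stood lower and 2 higher, against 6.67% lower and 7.35% higher among 1020 genes (14% either way). Among those lower, type I collagen was the most abundant, with Col1a1 at a ratio of 0.433 (0.399 to 0.469) and Col1a2 at 0.529 (0.490 to 0.571). Col12a1 stood at 1684 CPM (1495 to 1889) and 455 CPM (353 to 577), a ratio of 0.270 (0.204 to 0.353), Col16a1 at 0.395 (0.229 to 0.658) and Col11a1 at 0.530 (0.347 to 0.796). Col6a2 stood higher, at 390 and 635 CPM with a ratio of 1.63 (1.18 to 2.26), and so did Col4a2, at 111 and 268 CPM with a ratio of 2.42 (1.37 to 4.42). With types assigned per cell neither was counted higher, Col3a1 and Col4a1 were instead, and Col6a2 also missed a 2-fold limit. Col3a1 at 1.41 (1.26 to 1.58) stayed within the limit. The median log2 ratio of the 14 was 0.12, although the sum was lower. By family, the ratio was 0.606 (0.578 to 0.635) for fibrillar and 0.590 (0.506 to 0.685) for FACIT collagens, 1.14 (0.968 to 1.34) for beaded filaments and 1.84 (1.33 to 2.58) for the basement membrane network. Short-chain collagens, with 53 and 27 UMIs, had a ratio of 0.585 (0.354 to 0.947). Col16a1 was the gene counted lower in both fibroblast types.

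A few cells held much of the Tsc1 flox Sfrp2-type collagen. Collagen took from 0.965% to 21.3% of a Tsc1 flox cell's UMIs, with a median of 2.46%, and from 0.299% to 5.09% of a Tsc1 RPE KO cell's, with a median of 1.79%. The ranges overlapped, and 6 of the 29 Tsc1 flox cells lay above the highest Tsc1 RPE KO cell. Those 6 held 48.9% of the collagen UMIs of the class and 18.3% of all its UMIs. The median cell stood at 5456 CPM of Col1a1 in Tsc1 flox against 4500 CPM in Tsc1 RPE KO, closer than the sums, and the highest at 137759 and 20497 CPM. For Col12a1 the median cell stood at 500 and 359 CPM, also closer than the sums. Without the single highest cell, an alternative chosen after the data were seen, the ratio of summed collagens was 0.706.

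In the endothelium, where fibroblast markers summed to 966 and 1818 CPM with 6 and 8 of 13 at 0, Col15a1 was the 1 gene of 4 counted lower, at 39 and 23 UMIs with a ratio of 0.577 (0.329 to 0.991), against 5.19% lower and 5.34% higher among 1292 genes (10.5% either way). The count fell to 0 under 4 of the alternatives, and after thinning the share of cells was 7.32% and 14.6%, opposite to the level, so no order was read from it. In the RPE, the class that Cre targets per the labels, 0 of 2 measured collagens were counted, against 8.08% lower and 11.1% higher among 334 genes (19.2% either way). Col8a1 had a ratio of 0.939 (0.640 to 1.41) and Col9a3 of 1.07 (0.603 to 1.99), intervals that include differences of up to 1.99-fold. Below the minimum, Col18a1 had 1 UMI in 12 Tsc1 flox cells and 37 UMIs in 44 Tsc1 RPE KO cells, a ratio of 11.3 (1.90 to 457). Free RNA held 8.09 and 14.8 CPM of Col18a1. With all barcodes of at least 1000 UMIs, 22 and 63 RPE-like cells gave 3 and 44 UMIs and a ratio of 5.11 (1.64 to 25.7). Col4a3, with 10 and 11 UMIs, had a ratio of 0.335 (0.129 to 0.880). The basement membrane network family, which includes it, had 19 and 32 UMIs in the RPE and a ratio of 0.513 (0.282 to 0.958). Melanocyte markers, some of which RPE cells also express, summed to 1589 and 2592 CPM in the RPE-like cells, with Pmel and Kit of 7 at 0, and the part of other cells' RNA in these RPE and endothelial ratios was not tested.

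**Figure D5:**
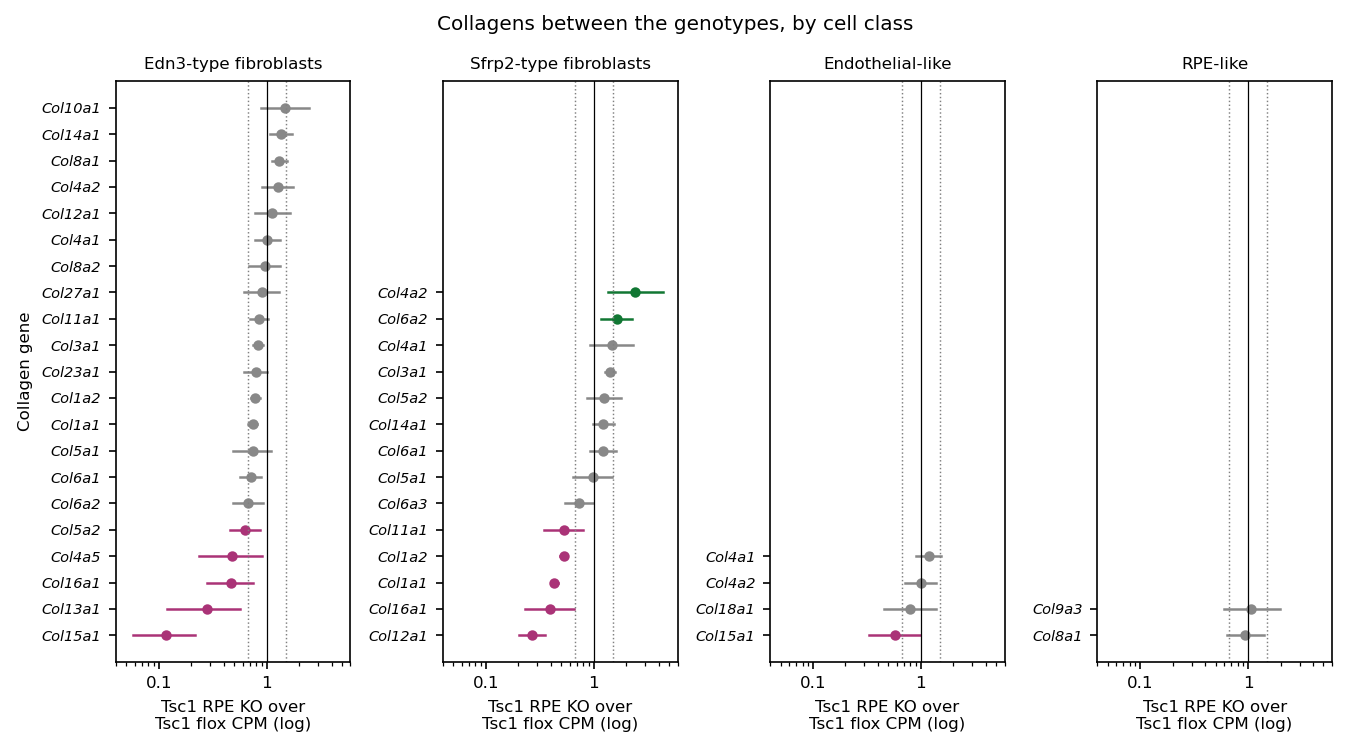
Ratio of Tsc1 RPE KO over Tsc1 flox (CPM over CPM, log axis) for the measured collagens of each class with 95% counting intervals; dotted lines mark 1.5-fold in either direction, magenta marks genes counted lower, green genes counted higher and grey the rest. Col15a1 in the Edn3-type lies lowest at 0.118, and the RPE shows no counted gene.

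The genes that make, trim, cross-link, degrade or bind collagen were read from lists by the same rules. Unlike the collagens, these genes were open to use in the clustering. Of 18 measured genes of synthesis and folding, 4 stood higher in the Sfrp2-type and 0 in the Edn3-type, where 3.65% and 5.46% of all measured genes did, the shares against which each list's count is to be read. They were P4ha1 (ratios 2.15 and 2.41), a prolyl hydroxylase chain, Crtap (2.03 and 2.31), part of the prolyl 3-hydroxylase complex, the collagen chaperone Serpinh1 (2.69 and 2.34) and the export factor Mia3 (3.13 and 2.56). The abundant general folding factors Ppib, Hspa5 and Pdia3 were not counted. Ppib stood at 581 and 639 CPM in the Edn3-type and 705 and 575 CPM in the Sfrp2-type, Hspa5 at 548 and 545 against 740 and 863 CPM, and Pdia3 at 383 and 380.3 against 687 and 709 CPM.

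All 4 measured genes of propeptide removal stood higher in the Sfrp2-type. Pcolce, an enhancer of the C-proteinase, stood at 828 and 675 CPM in the Edn3-type and 2074 and 1920 CPM in the Sfrp2-type. The C-proteinase gene Bmp1 had ratios of 2.59 and 4.80 and the N-proteinase gene Adamts2 of 4.65 and 4.18, while Pcolce2 had 2 and 0 UMIs against 32 and 21. Of 4 cross-linking genes, the lysyl oxidase Loxl2 stood higher in the Sfrp2-type (5.58 and 2.71) and the transglutaminase Tgm2 in the Edn3-type, with 86 and 56 UMIs against 1 and 5. Loxl1 stood at 168 and 183 CPM against 309 and 167 CPM and Lox at 68.9 and 57.6 against 175 and 53.5 CPM, and neither was counted. Of 10 genes of degradation and its inhibitors, 3 stood higher in the Sfrp2-type. These were the gelatinase Mmp2 (3.61 and 2.81), the inhibitor Timp2 (3.43 and 3.23) and the stromelysin Mmp3, with 8 and 0 UMIs against 132 and 53. Most of those 53 Mmp3 UMIs lay in a single Tsc1 RPE KO cell, as given below. The membrane protease gene Mmp14 stood at 162 and 173 CPM against 99 and 154 CPM and the inhibitor gene Timp3 at 3878 and 4147 against 4439 and 1692 CPM, both uncounted. None of the 3 measured receptors was counted in either direction. The integrin chain gene Itgb1 stood at 367 and 362 CPM in the Edn3-type, 548 and 542 CPM in the Sfrp2-type and 717 and 532 CPM in the endothelium. The collagen-binding integrin chain gene Itga1 was highest in the endothelium, at 121 and 56.6 CPM, and the receptor gene Ddr1 in the RPE, at 62.3 and 75.9 CPM from 2 and 8 UMIs.

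Basement membrane partners and the collagen-inducing pathway split between the types. Sparc, which binds collagen, stood at 878 and 976 CPM in the Edn3-type and 8092 and 4783 CPM in the Sfrp2-type. Lama4 (4.27 and 4.31), Nid1 (4.42 and 10.9) and Hspg2 (2.79 and 4.46), encoding a laminin chain, nidogen and perlecan, also stood higher in the Sfrp2-type, of 10 measured. The laminin chain gene Lamc3, with 100 and 63 UMIs against 0 and 0, and Agrn, encoding agrin, with 36 and 29 against 0 and 1, stood higher in the Edn3-type. Lama2, another laminin chain gene, stood at 293 and 239 CPM against 139.8 and 140.5 CPM and was not counted. Of the pathway genes, Tgfb2, Tgfbr2 and Ltbp1 stood higher in the Sfrp2-type, and Smad7 and Ccn2, both known targets of TGF-beta signalling, in the Edn3-type. Ccn2 stood at 2666 and 3664 CPM in the Edn3-type and 746 and 1117 CPM in the Sfrp2-type. The ligand gene Tgfb2 had ratios of 5.06 and 4.06, the receptor gene Tgfbr2 of 2.35 and 3.77 and the latency protein gene Ltbp1 of 9.68 and 16.8. Its relative Ltbp4 stood at 458 and 425 CPM in the Edn3-type and 669.9 and 789 CPM in the Sfrp2-type, and was not counted.

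Between the genotypes these lists were read against the shares over all measured genes, 7.07% in the Edn3-type, 14% in the Sfrp2-type, 10.5% in the endothelium and 19.2% in the RPE. In the Edn3-type, 1 of 18 synthesis genes (Plod1, a lysyl hydroxylase, 0.526), 1 of 10 basement membrane partners (Nid1, 0.604) and 1 of 15 pathway genes (Tgfbi, 0.574) stood lower, and Smad3 (1.78) stood higher. In the Sfrp2-type, Timp3, an inhibitor of matrix metalloproteinases, stood at 4439 and 1692 CPM (0.381), Sparc at 0.591, the collagen-cleaving cathepsin gene Ctsk at 0.312, Loxl1 at 0.542, Serpinh1 at 0.665 and P3h3 at 0.534. Mmp3 (0.461) and Tgfb3 (0.501) were also counted lower there, but 1 cell held 86.8% of the Mmp3 UMIs in Tsc1 RPE KO and 51.3% of the Tgfb3 UMIs in Tsc1 flox. Bmp1 (1.72) and the collagen receptor gene Ddr2 (1.86) stood higher. These were 2 of 9 measured genes of synthesis, 1 of 4 of propeptide removal, 1 of 1 of cross-linking, 3 of 6 of degradation, 1 of 2 receptors, 1 of 6 basement membrane partners and 1 of 8 pathway genes. In the endothelium, Lamb2 (0.477) and Nid1 (0.591) were counted lower of 6 measured partners. In the RPE, Pcolce stood at 187 CPM from 6 UMIs in Tsc1 flox and 826 CPM from 87 UMIs in Tsc1 RPE KO, giving a ratio of 4.42 (1.95 to 12.4), while no fibrillar chain of type I or III had a UMI there.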

How the data were processed

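The deposited matrices hold raw UMI counts per gene and barcode, 1 matrix per library. Per the labels' protocols the libraries were made with the 3′ v2 kit of 10x Genomics, and per the submitters' processing notes they were processed with Cell Ranger 2.1.1 on mm10, while the file headers name software version 4. No cell annotation was used. Barcodes needed at least 500 UMIs and 10% of the 99th percentile of the 3000 largest, which gave minimums of 1487.41 (Tsc1 flox) and 1373.61 (Tsc1 RPE KO) UMIs, then 200 genes and under 20% mitochondrial UMIs, and 8 and 19 called doublets were removed. Cells were clustered with scanpy 1.11.5 (Leiden 0.10.2, 2000 variable genes without collagens, 30 components, 20 neighbours). Class barcodes with at least 10 leukocyte marker UMIs were left out (1 and 2 Edn3-type, 0 and 2 RPE). A share of free RNA estimated from haemoglobin lay between 0.23% and 0.56% in the 4 classes.

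Sums per class and library were compared as CPM with exact Poisson intervals, as ratios with exact conditional binomial intervals and as shares of cells with Clopper-Pearson intervals (scipy 1.17.1). Only the ratio intervals and their calls between genotypes were tested first on simulated data, drawn with Poisson counting error and no spread between cells. No p-value was computed. Intervals and floors cover counting error only. Every collagen with at least 50 UMIs in a class was named, and of each partner list up to 4 of the most abundant members and every counted one. The members and lists were chosen with earlier results of these data known. One gene of the pathway list is not reported here. All 44 gene IDs were found in GENCODE M21, and 35 had a promoter window. The alternatives changed the UMI minimum per barcode, mixed barcodes, the assignment of fibroblast types, cell weights, free RNA, scaling, the minimum and fold of a count, the top cell and the genes clustered.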

Additional observations from a re-analysis of the deposited data

How the results depend on the processing

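No counted ratio changed direction in any alternative run. Ratios whose interval included 1 did so for Col5a1 in the Sfrp2-type, Col12a1 in the Edn3-type, Col4a2 in the endothelium and Col8a1 and Col9a3 in the RPE between genotypes (Col9a3 0.841 at 1000 UMIs per cell), and for Col4a2, Col8a2, Col11a1 and Col13a1 between types, each in 1 library. Of 233 main values recomputed, 31 moved beyond their interval or count limit. With fibroblast types assigned per cell, the summed collagens were 6721 and 5683 CPM in the Edn3-type (Tsc1 flox and Tsc1 RPE KO) and 40234 and 28248 CPM in the Sfrp2-type, with a genotype ratio of 0.702, type ratios of 5.99 and 4.97, and 5 partner genes in place of 10 counted by genotype in the Sfrp2-type. Each cell was typed there by whether Edn3 and Pgf or Sfrp2 and Fmod had more UMIs. That left 22 and 14 Sfrp2-type cells, against 29 and 24 by cluster. With cells weighted equally the Tsc1 flox Sfrp2-type sum was 40555 CPM, its genotype ratio 0.548 and its type ratio 6.21, and without the Tsc1 flox cell of highest collagen share, chosen after seeing the data, 32259 CPM, 0.706 and 5.00. Scaling by median ratio gave type ratios of 6.48 and 4.83 and leaving out each gene's top cell 5.09 and 4.09. Col10a1 was counted higher in Tsc1 RPE KO in the Edn3-type (1 gene) with equal weights and without top cells. With a 2-fold genotype limit, 1 collagen stood higher and 3 lower in the Sfrp2-type. Endothelial Col15a1 was lost (0 genes) at that limit, at 1000 UMIs per cell, by median ratio and without top cells. In the RPE 1 gene was counted lower at 1000 UMIs (Col8a2), and with a minimum of 20 or 1 UMIs 1 was higher (Col18a1) and 1 lower (Col4a3). The cause was not tested. The 12 collagens counted higher in the Sfrp2-type, and Col13a1, Col15a1 and Col16a1 lower in the Edn3-type and Col1a1, Col12a1 and Col16a1 lower in the Sfrp2-type, were counted in every alternative run. No alternative was set to leave out together the 6 Tsc1 flox Sfrp2-type cells that held 48.9% of that class's collagen UMIs.

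No paired analysis was possible because each genotype has 1 library, and for the same reason no replicate could be left out. Depth limits the RPE most: 12 and 44 cells with 32094 and 105341 UMIs left 2 collagens measured, and the 29 and 24 Sfrp2-type cells left 14.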

Other observations

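Outside the 4 classes, the 9 Tsc1 flox and 5 Tsc1 RPE KO mural-like cells held 7132 and 5747 CPM of collagen, close to the Edn3-type fibroblasts. Col3a1 stood there at 1530 and 966 CPM and Col4a1 at 601 and 531 CPM. Col10a1 had 13 UMIs in 3 of the 9 Tsc1 flox cells and 0 in Tsc1 RPE KO. Col4a3 had 10 UMIs in 3 Tsc1 flox cells.

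Rod-like cells, 42 and 176, held 69.1 and 66.3 CPM of collagen, above the 17.7 and 18.7 CPM of the T or NK cell-like cells, with intervals that did not overlap in Tsc1 RPE KO. Col27a1 had 6 and 13 UMIs in B cell-like cells, where 1.46% and 3.46% of cells had a UMI.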
